A study of Drosophila melanogaster with 4 samples.

Results

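Suppressor of Hairless, Su(H), is the DNA-binding factor of the Notch pathway. The peaks described here are its own ChIP-seq peaks in windows named for the genes of the receptor, Notch (N), of a ligand, Delta (Dl), and of Su(H) itself. A peak was taken where it overlapped X from 3020000 to 3075000 (the N window), 3R from 15140000 to 15185000 (the Dl window) or 2L from 15030000 to 15050000 (the Su(H) window), in FlyBase release 5. Of the 14384 peaks in the list, 13 met this rule, with 6 in the N window, 2 in the Dl window and 5 in the Su(H) window. Within the windows peaks were taken by position alone, so their number, width and score did not enter the rule. The windows themselves were chosen with earlier results of these data known.

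The study immunoprecipitated Su(H) from Kc167, an established Drosophila melanogaster line of embryonic origin, which the labels give as female with the genotype se/e. There were 3 ChIP libraries and 1 library of input DNA, which is chromatin sheared but not immunoprecipitated. All came from this single line, fixed with 1.8% formaldehyde, and the labels name no treatment. The antibody was a rabbit polyclonal whose antigen spans residues 259 to 594 of Su(H). The authors deposited 1 peak list for the whole series, and which ChIP libraries entered it is not given. No peak thus has a value per replicate, depth per library is unknown, and every comparison below is a description with no test. No expression was measured here, so neither the identity of the line nor the RNA of the 3 genes was checked.

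In the Notch pathway, a ligand such as Delta on one cell binds the Notch receptor on its neighbour. The receptor is then cut, and its intracellular domain enters the nucleus, where it joins Su(H) and the coactivator Mastermind at target genes. Without that signal Su(H) can hold the same kind of site with the corepressor Hairless. Notch, Delta and Su(H) are therefore the receptor, a ligand and the nuclear effector of a single pathway. Peaks in their windows are places where the effector was called in or near the genes of pathway components.

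The 3 windows differed in the strength and the layout of their peaks. The N window held 3 of the higher peaks of the X, the Dl window a pair of peaks of moderate height far from any other, and the Su(H) window a compact row of low peaks. The score of a peak behaved as −log10 of a Poisson p-value, and peaks in the highest 10% of the list (score 106.8 or above) are called strong, those in the lowest 50% weak and the others intermediate. Of the 13 peaks, 4 were strong, 8 intermediate and 1 weak.

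**Figure D1:**
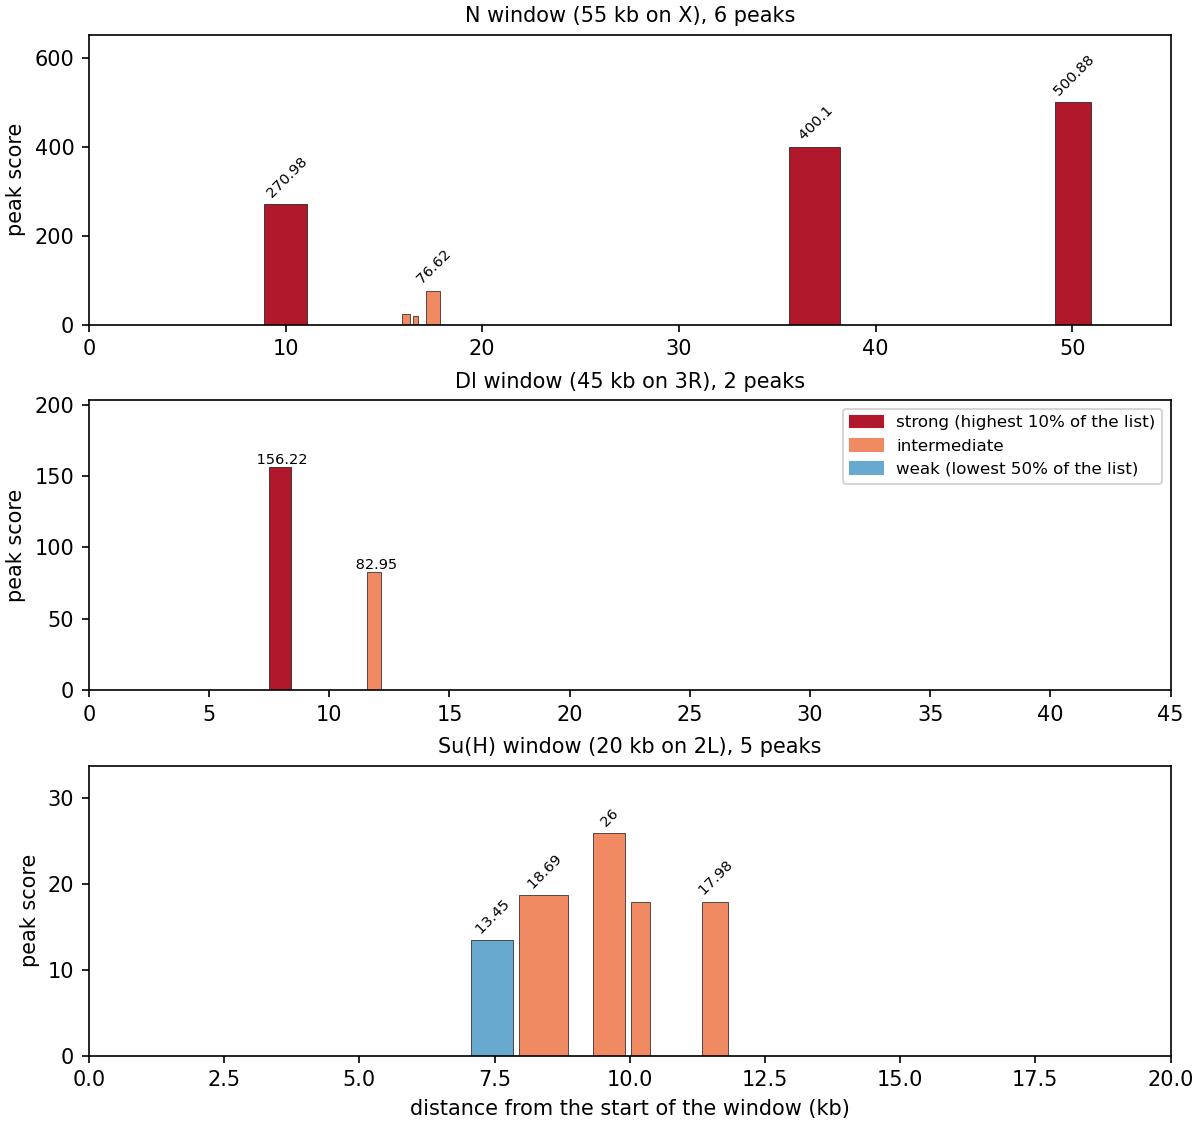
Score of each peak (vertical axis, linear, a separate scale for each window) against its distance from the start of the window in kb, with bars as wide as the peaks and coloured by class. The N window carries 3 strong peaks that reach 500.88, the Dl window 2 peaks near its start, and the Su(H) window 5 low and closely packed peaks.

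Scores can be read as heights only where peaks share a background. Against a background mean of 195.9, 9724 of the 14384 scores (67.6%) lay within 0.0075 of the value of a whole count. On 2L, the arm of the Su(H) window, 54.0% of scores lay outside, so comparisons by score along that arm carry this limit. The count that gives a score, divided by this background mean, is the fold over background used below. Of the 13 peaks, 11 lay within this tolerance, and their folds carry the exact 95% Poisson interval of the implied count. That interval covers counting error only and says nothing of the spread between libraries. The other 2, both in the Su(H) window with a score of 17.98, lay outside the tolerance, near a count of 331. The same score of 17.98 recurred in other peaks of 2L and 3R. Whether the 2 peaks were scored against another background was not tested, so their folds are given as upper bounds. The median peak of the whole list had a score of 16.12, a fold of at most 1.65 and a width of 450 bp.

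The Notch gene encodes the transmembrane receptor of the pathway. The highest peak of its window spanned 3069131 to 3070939 of X and scored 500.88, a fold of 6.06 (5.72 to 6.42). It ranked 206 in the whole list and 39 among the 2500 peaks of the X, which is the top 1.56% of that arm. It was high for its width. Of 153 peaks on the X within 20% of its width of 1809 bp, 150 (98.0%) had lower scores, and their median was 73.73.

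The next peak in height lay on X from 3055594 to 3058187. It was the widest of the window at 2594 bp, with a score of 400.10, a fold of 5.39 (5.07 to 5.72) and rank 66 on the arm. The third strong peak ran from 3028886 to 3031100 and was 2215 bp wide. Its score was 270.98, its fold 4.43 (4.14 to 4.74) and its rank on the arm 123. These strong peaks thus differed in fold, with intervals that did not overlap, although those of the upper pair both bound at 5.72 after rounding. Their midpoints were 26.9 kb and 13.1 kb apart, and none of them lay within 1 kb of another peak.

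Between the first and the second strong peak lay 3 intermediate peaks in a short group. They ran from 3035941 to 3036304 (score 24.41, 1.82-fold), from 3036505 to 3036752 (score 20.12, 1.74-fold) and from 3037116 to 3037877 (score 76.62, 2.60-fold). Only 200 bp and 363 bp separated neighbours in this group, and joining peaks under 1 kb apart made it a single region of 1937 bp. The first and second of the group had overlapping Poisson intervals (1.64 to 2.02 and 1.56 to 1.93), while that of the third, 2.38 to 2.83, lay above both.

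Strong peaks made up 3 of the 6 in the N window, against 11.4% of all peaks on the X. The window held 0 weak peaks, whereas 51.6% of the X peaks were weak. Peaks at a gene lie close together and are not independent of each other, so these shares are counts from a single place. Strong peaks took 82.8% of the covered length of the window, against 37.8% of the covered length of the arm. The median score was 173.8 in the window and 15.76 over the arm, and the median width 1285.5 bp and 454.5 bp.

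**Figure D2:**
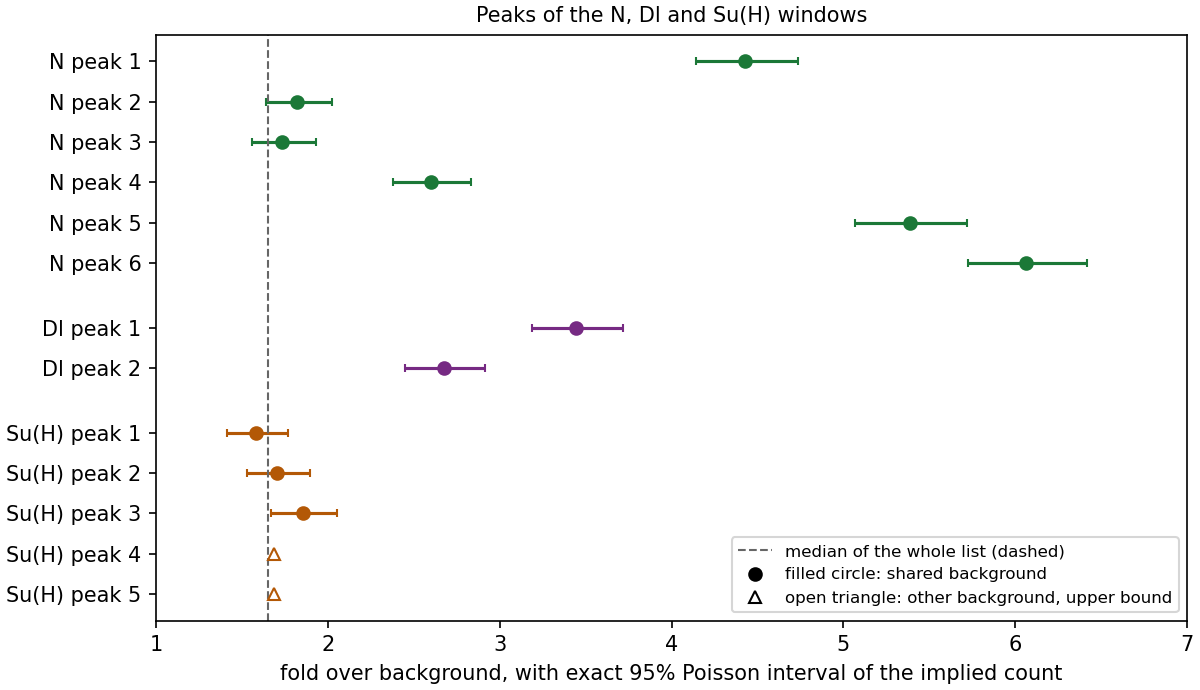
Fold over background of the 13 peaks, in order along each window, with the exact 95% Poisson interval of the implied count as bars and the list median of 1.65 as a dashed line. The N peaks span 1.74-fold to 6.06-fold, both Dl peaks lie above the median, and the Su(H) peaks lie at or near it. Open triangles, named other background in the key, mark Su(H) peaks with scores outside the tolerance. They are drawn as upper bounds without an interval, and whether their background differed was not tested.

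The Delta gene encodes a membrane-bound ligand of Notch. Its window held 2 peaks, with a median width of 755 bp, against 436 bp over 3R. The higher lay on 3R from 15147491 to 15148409, with a width of 919 bp, a score of 156.22 and a fold of 3.45 (3.19 to 3.71). It ranked 1099 in the list and 268 among the 3608 peaks of 3R. The other lay from 15151572 to 15152162, with a width of 591 bp, a score of 82.95 and a fold of 2.67 (2.45 to 2.91), rank 375 on the arm. Their intervals did not overlap, and 3162 bp separated them.

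Both Dl peaks were high for their width. The higher exceeded 396 of the 410 peaks of similar width on 3R (96.6%), whose median score was 21.65. The other exceeded 599 of 614 (97.6%), whose median was 16.13. Of the 2 peaks 1 was strong, against 9.12% of all 3R peaks, and 0 were weak, against 56.6%. The higher Dl peak still stood below each of the 3 strong N peaks, since its interval ended at 3.71 and the lowest of theirs began at 4.14.

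The peak-free sequence around Dl was long. From the end of the second peak 32.8 kb of the window remained without a peak, and the next peak on 3R began 136.0 kb away. On the other side the nearest peak ended 93.7 kb before the first. The pair therefore stood alone within 234.4 kb. Among 3605 runs of 2 neighbouring peaks on 3R, 3, this one included, had peak-free stretches at least this long on both sides, in either order. The same count was 9 of 2493 runs of 6 peaks for N and 57 of 2261 runs of 5 peaks for Su(H). Each count used the stretches of its own run as the limit. The nearest outer peaks were a low one at 15053554 to 15053770 (score 10.21) and a strong one at 15288194 to 15290445 (score 235.56). A list of called peaks cannot tell weak binding from its absence in such a stretch, and coverage of reads there was not analysed here.

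**Figure D3:**
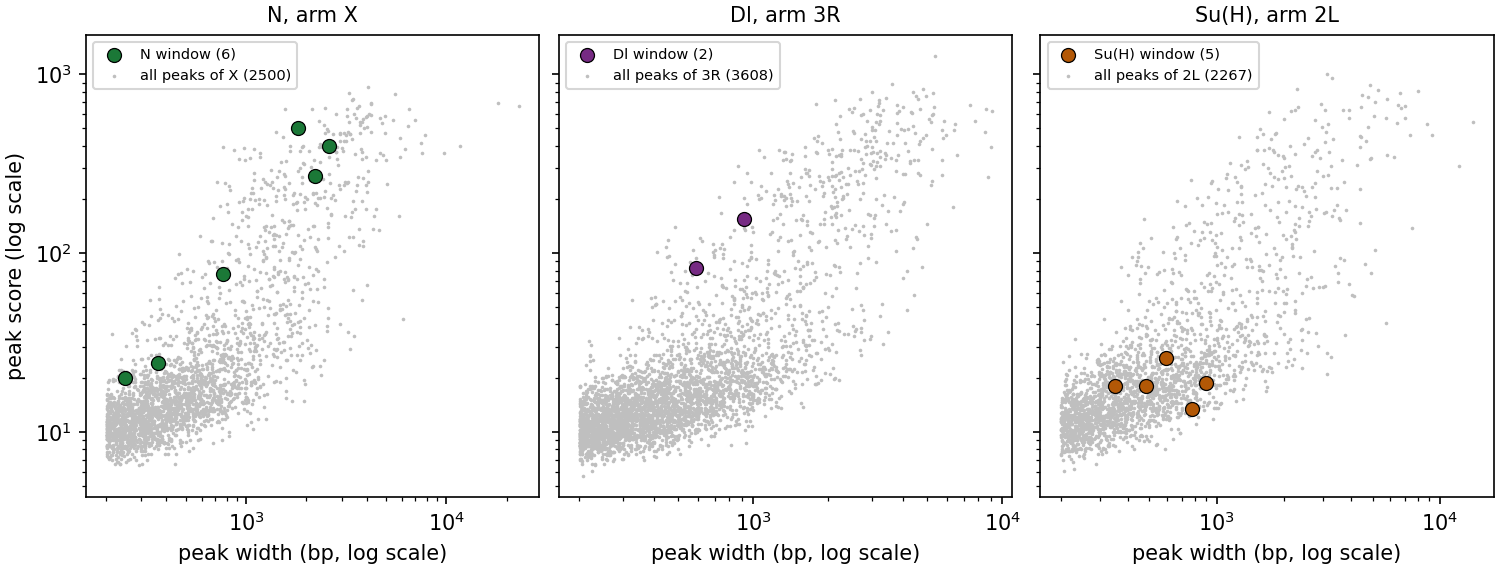
Score against width, both on log axes, for the peaks of each window (coloured) and for all peaks of the same arm (grey). The N and Dl peaks lie along the upper edge of the grey cloud or above its middle, whereas the Su(H) peaks of 773 and 893 bp lie in its lower part.

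The Su(H) gene encodes the factor that was immunoprecipitated. Its window had 5 peaks, all low, in a row of 4759 bp on 2L from 15037060 to 15041818. The highest was the third (15039316 to 15039906), which scored 26.00, a fold of 1.85 (1.67 to 2.05). It ranked 637 among the 2267 peaks of 2L. The first (15037060 to 15037832) was the only weak peak and scored 13.45, a fold of 1.58 (1.41 to 1.77).

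The second peak of the row, from 15037958 to 15038850, scored 18.69, a fold of 1.71 (1.53 to 1.90). The fourth (15040030 to 15040378) and the fifth (15041334 to 15041818) had the same score of 17.98 and folds of at most 1.69. The intervals of the first 3 peaks overlapped, which does not by itself show that their heights were alike. These intervals overlapped those of the N peaks of 24.41 and 20.12 as well, and lay below that of each Dl peak.

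Strong peaks numbered 0 of 5 in the Su(H) window, against 9.44% of the 2L peaks, and 1 of 5 was weak, against 44.4%. For their width the 5 peaks were ordinary or low. The first exceeded 20 of 332 peaks of similar width on 2L and the second 72 of 288, while the other 3 exceeded 53.8% to 75.4%. The median score was 17.98 in the window and 17.44 over the arm, with median widths of 591 bp and 455 bp.

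The peaks of the Su(H) row lay close together. Gaps of 125, 465, 123 and 955 bp separated its peaks, which covered 65.0% of the row, and joining peaks under 1 kb apart left 1 region. On 2L, 117 of 928 joined regions held at least 5 peaks. Of those 117, 35 had no score above 26.00, and their median highest score was 40.67. The gaps and the covered share of those other regions were not compared with the Su(H) row. Whether such neighbours are separate sites or a single broad enrichment was not tested.

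The share of scores within the tolerance of the shared background also differed between the windows. All 6 N peaks and both Dl peaks lay within it, and 3 of the 5 Su(H) peaks did. The other 2 both scored 17.98, a value that recurred elsewhere on 2L and 3R, so this difference rested on a single score value. Over whole arms, 24.0% of the X peaks, 23.1% of the 3R peaks and 54.0% of the 2L peaks lay outside the tolerance. Such a score can come from another background or from a whole count whose value it narrowly missed, and these were not separated. Within 100 kb on either side of the windows these shares were 69.2% of 13 peaks around N, 0.0% of 3 around Dl and 59.1% of 22 around Su(H). The part of such differences in the scores was not tested.

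Each window was then set beside the other windows of its length on its arm, laid end to end from it. Percentages give the share of other windows with a lower value, with exact 95% binomial intervals for counting error over windows. Windows along an arm are not independent. By highest score the N window stood above 370 of the 404 other windows of the X (91.6%, 88.4% to 94.1%). By covered length it stood above 76.0% (71.5% to 80.1%), with 7992 bp against a median of 2084.5 bp. By number of peaks it stood above 62.9% (58.0% to 67.6%), with 6 against a median of 3.

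Few windows of the X were alike to N in having high peaks without many peaks. At least 1 peak was found in 72.5% of the other windows and at least 1 strong peak in 42.6%. As many as 3 strong peaks were found in 34 of 404. Of the 268 windows with 6 peaks or fewer, 157 held a peak, and 7 of these reached a score of 500.88. The N window was thus ahead of most windows by height and by strong peaks, and nearer the middle by number.

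Among windows of 3R, the Dl window lay near the middle by covered length, somewhat lower by number of peaks and higher by highest score. By highest score it stood above 419 of 618 other windows (67.8%, 64.0% to 71.5%), by covered length above 46.4% (42.5% to 50.5%) and by number of peaks above 39.5% (35.6% to 43.5%). Its 2 peaks covered 1510 bp, against a median of 1941 bp. At least 1 peak was found in 72.5% of the other windows and at least 1 strong peak in 36.7%. Among the 448 windows with a peak it stood above 16.5% by number of peaks and 26.1% by covered length. Of 129 windows with 1 or 2 peaks, 27 reached a score of 156.22.

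The Su(H) window ranked high by number and length and less so by score. It stood above 959 of 1147 other windows of 2L by number of peaks (83.6%, 81.3% to 85.7%) and above 82.7% (80.4% to 84.9%) by covered length, with 3091 bp. By highest score it stood above 68.4% (65.6% to 71.0%). Windows of 20 kb are often empty, and only 45.2% of the others held a peak and 18.1% a strong one, so the ranking by score depended on the empty windows. Among the 518 windows with a peak, its highest score stood above 29.9%. Of 188 windows with at least 5 peaks, 32 had no score above 26.00, 100 had no strong peak, and their median highest score was 84.55.

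**Figure D4:**
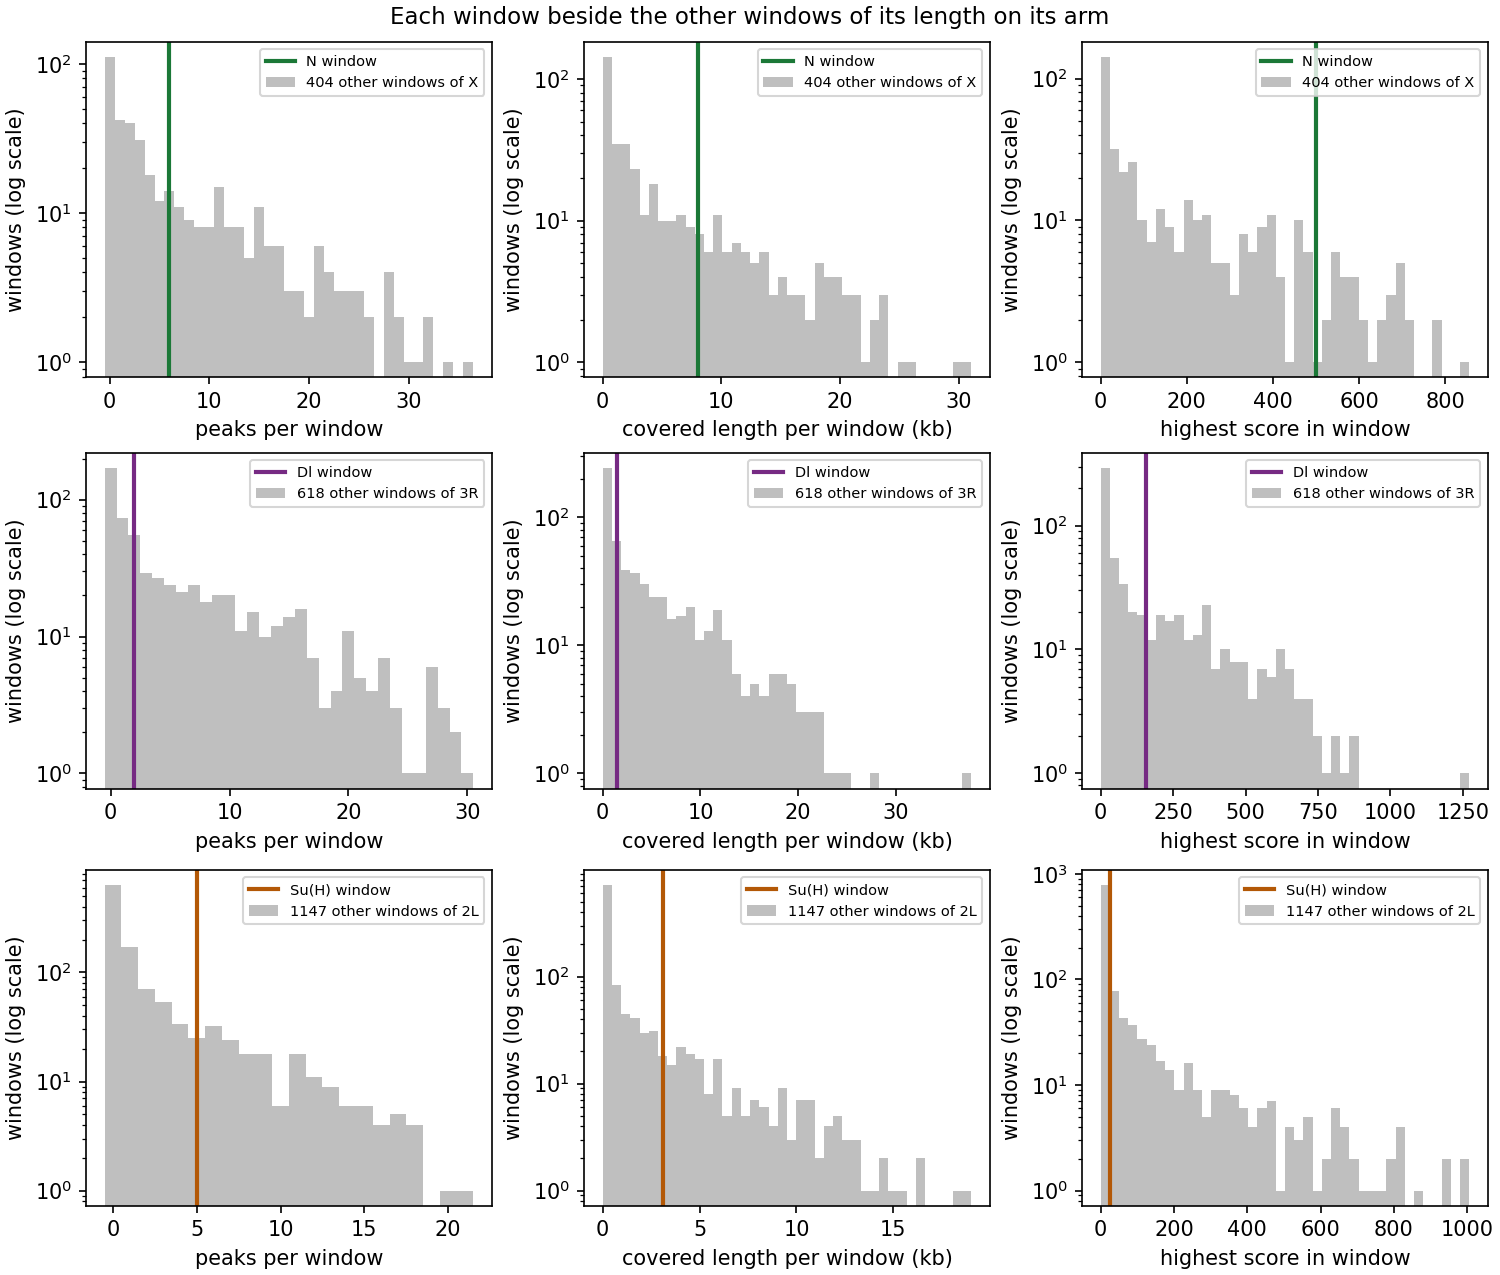
Number of windows (log axis) by number of peaks, covered length in kb and highest score, for the other windows of the same length and arm (grey), with the N, Dl and Su(H) windows as coloured lines and windows without a peak at 0. The N line stands far to the right only by highest score, the Dl line near the bulk in each panel, and the Su(H) line to the right by number and length but near the low end by score.

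The surroundings of the windows differed as well. Around N, the nearest peak before the first of the window lay 25.4 kb away at 3002711 to 3003521 (score 26.00), and after the last no peak followed for 111.1 kb, up to 3181995. On the X, 38 of 2499 gaps between neighbouring peaks were at least that long (1.52%), and the median gap was 795 bp. Within 100 kb of the N window the 13 other peaks reached 446.99, below its own highest peak. Within 1 Mb, 6 of 126 other peaks exceeded 500.88.

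Around Su(H) the nearest peaks lay 26.1 kb before the row and 14.9 kb after it. The one after it ran from 15056672 to 15057802 and was strong, with a score of 170.97, above every peak inside the window. Within 100 kb the 22 other peaks included 2 strong ones and reached 341.56. Within 1 Mb, 27 of 89 other peaks exceeded the highest Su(H) peak. Around Dl, 3 other peaks lay within 100 kb, of which 1 was strong with a score of 441.70. Within 1 Mb of Dl, 18 of 127 other peaks exceeded its highest peak. Peaks there numbered 63.5 per Mb, against 129 per Mb over 3R, and 63.0 around N, against 112 over the X. Around Su(H) they numbered 44.5 per Mb, against 98.7 over 2L.

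**Figure D5:**
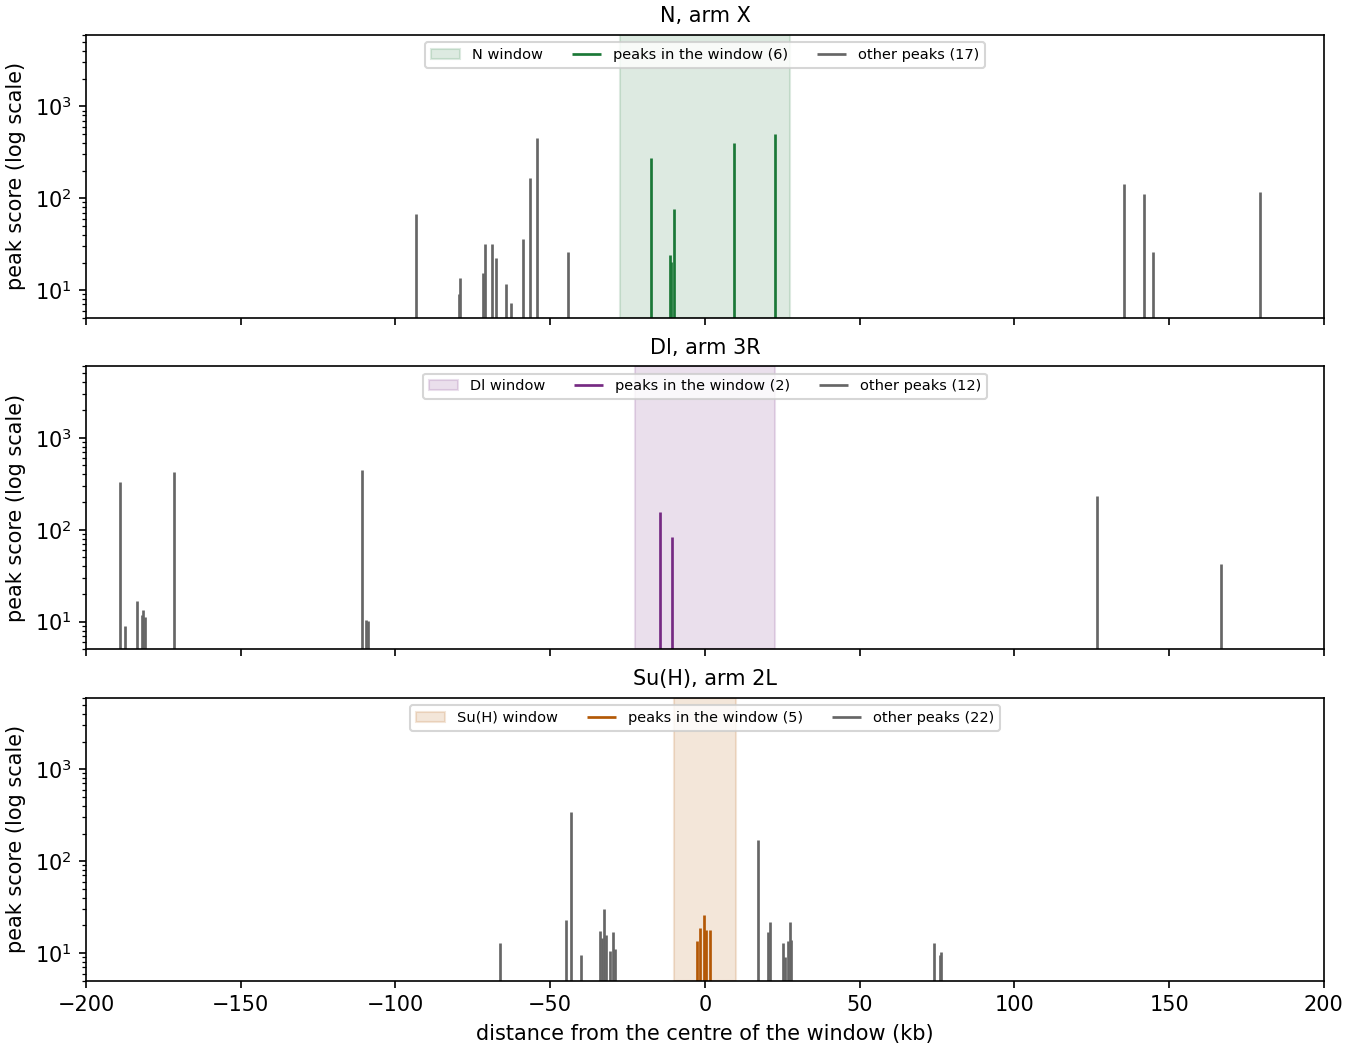
Peaks within 200 kb of the centre of each window, as lines whose height is the score (log axis), against distance in kb, with the window shaded. The 2 Dl peaks stand alone between distant neighbours, the N peaks are followed by a long stretch without peaks, and the Su(H) row has higher peaks on both sides.

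The windows were set by coordinates, and each may hold more than the gene it is named for. In the gene order of a release 6 table, the protein-coding neighbours are kirre and CG18508 for N, CG44174 and CG43203 for Delta, and CIAPIN1 and ck for Su(H). No release 5 annotation was used here, so no peak was placed in a promoter, an intron or a neighbouring gene.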

How the data were processed

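For Su(H) ChIP (3 libraries) and input DNA (1 library) of Kc167 cells there was 1 peak list, which names no library. The coordinates are FlyBase release 5 per the file headers, and MACS stands in the source column. The submitters' processing notes list BDGP5, BWA, MACS2 and CASAVA (1.7.0.2, 1.7.0.3) without roles. The authors called the peaks and deposited 1 score for each, whose unit is unstated and whose values fit −log10 of an unadjusted Poisson p-value. For the threshold, the pooling and the depth, no source used here gives a value. The background mean was fitted between 10 and 500 on scores shared by at least 25 peaks and below 40, of which 91 of 92 lay within 0.015 of a whole count's value. It was then refined on all peaks with a tolerance of 0.0075 and checked on simulated scores. Comparison windows ran to the end of the last peak of the arm. Every peak of the 3 windows is named. The windows and quantities were chosen with earlier results of these data known. Replicates could not be compared, and no test was run. Alternatives changed the peaks, their overlap and the windows. No sequence is shown, since no sequence file was used here. Software was matplotlib 3.10.9, SciPy 1.17.1, pandas 2.3.3, NumPy 2.4.6 and Python 3.11.15.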

Additional observations from a re-analysis of the deposited data

How the results depend on the processing

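Over 7 alternatives, of which 1 was chosen after seeing the data, 25 of 72 values moved beyond the counting interval of the reported value or by over 1.5 times, and the others did not. With the upper 50% of scores, the share of windows below N was 79.2% by number of peaks and 82.9% by covered length. For Dl these shares were 54.4% and 53.7%, and for Su(H) the share by number was 88.6%. With peaks under 1 kb apart merged, Su(H) had 1 peak, above 54.8% of windows by number and 85.0% by covered length, and Dl stood above 46.3% by number. With windows that hold a peak, N stood above 48.8% by number, 66.9% by covered length and 88.4% by highest score. On that basis Dl stood above 16.5%, 26.1% and 55.6%, and Su(H) above 63.7%, 61.8% and 29.9%. These shares are lower because empty windows, which lie below any window with a peak, were left out. With windows within 2 Mb, the setting added later, N stood above 74.3% by number and 83.8% by covered length. Dl then stood above 47.8% and 51.1%, and Su(H) above 75.0%, 76.0% and, by highest score, 64.0%. For the other settings the cause was not tested. Midpoints in place of overlap, windows tiled from the arm's first base and sliding windows moved no value. No paired analysis was possible because peaks carry no separate value for each library, and for that reason no replicate could be left out either. Folds assume that the shared background was the lowest in use.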
